A study of Mus musculus and Homo sapiens with 18 samples.

Results

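Glycolysis and hypoxia genes were described here as a set of 38 mouse genes, taken by symbol from the deposited table of tumour transcripts and found under the same gene identifiers in the table of the mouse line CUUC-G. They were 38 of the 55858 genes in these tables. The set covers 6 steps: oxygen sensing (4 genes), glucose uptake (2 genes), the preparatory phase of glycolysis (11 genes), its payoff phase (6 genes), the fate of pyruvate (5 genes) and the wider hypoxia response (10 genes). All 38 passed the filter on low counts in both comparisons.

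RNA of bladder carcinoma was sequenced in 18 libraries, of which the 12 mouse libraries in 4 groups of 3 are used here. The first pair of groups came from a genetically engineered mouse model (GEMM): tumours labelled as control, and tumours labelled as treated with chemotherapy, cisplatin plus gemcitabine, whose library names mark them as relapsed. The second pair was CUUC-G, a line of the same model, carrying either a guide against Igfbp5 (sgIgfbp5) or the control guide sgScr. Labels call the sgIgfbp5 samples a knockdown and the series design calls them a knockout. Igfbp5 encodes a binding protein that cells secrete to hold insulin-like growth factors. The genotype, strain, sex and age of the mice, the time of relapse and the number of clones behind the sgIgfbp5 samples are not given in the sources used here. Nothing says that the 3 libraries of a group came from separate tumours or cultures, so the p-values measure only the spread between these libraries, which may be technical.

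Glycolysis splits glucose into pyruvate. A preparatory phase spends ATP on sugar phosphates, and a payoff phase returns ATP and NADH. When oxygen is short, prolyl hydroxylases stop marking the HIF alpha subunits for destruction, and HIF then binds DNA elements with the core ACGTG or GCGTG and raises glycolytic enzymes, lactate export and other responses. Many tumours, bladder carcinoma among them, run glycolysis to lactate even with oxygen present. HIF is controlled mainly as a protein, which these data do not measure.

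Promoters of 5 genes of the set are printed to show the letters that HIF elements are built from, in enzymes, regulators and hypoxia markers. Each window runs from 250 bases before to 50 bases after a RefSeq start site (GRCm38.p6) and is 300 bases long, read 5′ to 3′ on the gene's strand. Capitals mark ACGTG or GCGTG on either strand, so that CACGT and CACGC are the same cores on the other strand; overlapping matches run together.
Ldha, lactate dehydrogenase A, chr7:46845554-46845853, plus strand: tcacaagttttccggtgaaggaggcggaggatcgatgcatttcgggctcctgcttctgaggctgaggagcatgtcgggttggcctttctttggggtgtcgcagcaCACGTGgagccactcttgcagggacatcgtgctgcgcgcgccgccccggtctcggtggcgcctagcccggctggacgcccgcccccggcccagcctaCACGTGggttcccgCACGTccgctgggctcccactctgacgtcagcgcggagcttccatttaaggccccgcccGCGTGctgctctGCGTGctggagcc
Pgk1, phosphoglycerate kinase, chrX:106186850-106187149, plus strand: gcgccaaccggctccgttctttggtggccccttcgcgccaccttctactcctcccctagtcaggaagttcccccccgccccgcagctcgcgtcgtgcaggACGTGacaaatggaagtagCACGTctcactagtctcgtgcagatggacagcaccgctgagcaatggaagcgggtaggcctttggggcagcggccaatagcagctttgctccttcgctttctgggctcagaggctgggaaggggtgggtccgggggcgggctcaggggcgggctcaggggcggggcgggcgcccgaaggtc
Bnip3, a mitophagy receptor, chr7:138909457-138909756, minus strand: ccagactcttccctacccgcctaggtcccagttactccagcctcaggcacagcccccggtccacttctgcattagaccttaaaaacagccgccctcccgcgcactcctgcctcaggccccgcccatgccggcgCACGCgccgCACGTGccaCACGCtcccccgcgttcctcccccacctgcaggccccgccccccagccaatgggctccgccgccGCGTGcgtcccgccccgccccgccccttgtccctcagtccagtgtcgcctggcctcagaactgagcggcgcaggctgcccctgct
Egln3, the prolyl hydroxylase PHD3, chr12:54203825-54204124, minus strand: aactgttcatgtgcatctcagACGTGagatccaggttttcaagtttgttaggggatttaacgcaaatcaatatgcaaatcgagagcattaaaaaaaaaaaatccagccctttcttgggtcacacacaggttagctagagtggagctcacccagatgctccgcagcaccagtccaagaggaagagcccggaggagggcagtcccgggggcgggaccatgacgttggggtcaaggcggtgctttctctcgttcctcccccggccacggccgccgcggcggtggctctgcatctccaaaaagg
Car9, carbonic anhydrase 9, chr4:43506776-43507075, plus strand: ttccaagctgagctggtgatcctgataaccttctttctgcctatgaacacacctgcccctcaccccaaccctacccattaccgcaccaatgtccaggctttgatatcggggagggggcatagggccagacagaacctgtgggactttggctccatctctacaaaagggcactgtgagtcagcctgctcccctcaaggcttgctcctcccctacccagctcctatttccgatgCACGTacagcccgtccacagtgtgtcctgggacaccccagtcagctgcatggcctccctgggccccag

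The Ldha window held 5 matches to ACGTG, counted on both strands, and 2 to GCGTG; 4 of the 5 came from 2 palindromes CACGTG, which match on both strands. Bnip3 had 2 matches to ACGTG, both from 1 palindrome, and 3 to GCGTG. RefSeq windows were found for 34 of the 38 genes, 49 windows in all; none was found for Epas1, Ndrg1, Slc2a3 and Bnip3l. ACGTG stood in 53.1% of the 49 windows and in 19.6% of all 32841 windows. The windows of the set were richer in G and C, with a median of 62.3% against 52.7%. Among the 8981 windows whose GC content lay within the middle quartiles of the set, 25.9% held ACGTG. The other core, GCGTG, stood in 55.1% of the windows of the set, in 32.4% of all windows and in 50.9% of those of similar GC. These shares describe letters, not binding. Car9, Slc16a1, Pfkm and P4ha1, which did not rise at relapse, had ACGTG in their windows as well. Car12 and Pfkfb4, which did not rise either, had none. Tpi1, Gpi1, Pfkl, Pfkp, Eno1, Eno2, Pdk1, Adm and Kdm3a rose at relapse and had no ACGTG in their windows.

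The labels were checked before the comparisons. Igfbp5 was low everywhere. It stood at 1.04, 2.56 and 2.31 CPM (counts relative to the library total after TMM scaling) in the sgScr libraries and at 0.605, 0.393 and 0.469 CPM with sgIgfbp5, a log2 change of -2.0 ± 0.42 (SE) from 114 to 30 counts (edgeR quasi-likelihood test, Benjamini-Hochberg adjusted p = 0.00125). In the tumours it had 0.182, 0.893 and 0.301 CPM in control and 1.79, 3.18 and 2.40 CPM at relapse. Total counts ran from 18.965 to 21.757 in the tumours and from 19.211 to 20.73 in CUUC-G, in units of 1e6. The 4 Y-linked genes examined summed to 160.2 to 174 CPM in the control tumours and to under 1 CPM in every library of the other 3 groups (0.199 to 0.751 CPM), so relapse and this difference cannot be told apart in the first comparison. The second comparison holds no such Y-linked difference. Its number of clones is not given, so targeting and a difference between clones cannot be told apart in it. Several immune, endothelial and red cell markers were at or near 0 in the tumours: Cd3e and Tie1 had 0 counts, Cdh5 and Ptprc had at most 0.249 CPM, and 5 red cell genes summed to at most 0.1005 CPM. Kdr, a receptor of endothelial cells, stood apart from the rest of its list, at 1.14 to 1.63 CPM in control and 150.4 to 162 CPM at relapse, and at 148 to 156 CPM with sgScr and 7.32 to 8.30 CPM with sgIgfbp5. The 10 immune markers summed to 19.3 to 20.9 CPM in control, nearly all Cd74, and to 5.47 to 6.27 CPM at relapse; in CUUC-G they summed to 5.64 to 6.11 CPM with sgScr and 19.7 to 23.5 CPM with sgIgfbp5. The 6 smooth muscle markers were not low and summed to 2389 to 2504 CPM in control, 1298 to 1320.0 CPM at relapse, 1328 to 1518 CPM with sgScr and 163 to 192 CPM with sgIgfbp5. Of the urothelial markers, Krt5 and Upk3a had 0 counts in all 12 libraries. The 11 urothelial markers summed to 11.7 to 13.6 CPM in control, 613 to 639 CPM in the relapsed tumours, 660.1 to 744 CPM with sgScr and 126 to 151 CPM with sgIgfbp5. The part of these markers in the results below was not tested.

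Relapsed tumours and sgScr cells had almost the same profile. The protocol has tumours harvested for RNA; whether any of their cells were grown in culture first is not given in the sources used here. Pearson's r of the group means of log2 CPM, across 14064 genes that are not independent replicates, was 0.993 between these 2 groups, 0.905 between control and relapsed tumours, 0.921 between control tumours and sgIgfbp5 cells, and 0.891 between sgScr and sgIgfbp5. Of these genes, 0.611% differed 2-fold between the relapsed and the sgScr means. The tables were deposited separately and TMM-scaled separately. This and the later comparisons of level between the tables are therefore descriptions with no test. In level, the second comparison thus started about where the first one ended.

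The first comparison asked how the set differed between relapsed and control tumours. Transcripts of 31 of the 38 genes were higher at relapse, 5 were lower (Pfkm, Slc16a1, Car12, Ndrg1 and P4ha1) and 2 did not pass the test (Pfkfb4 and Car9). The median log2 change over the set was 1.02, against 0.00 over all 14373 genes tested. Change was wide at relapse: edgeR called 73.5% of all genes, 36.6% higher and 36.9% lower, so a call by itself says little and the 31 of 38 is to be read against the 36.6%. At least 2-fold changes were called higher in 20 genes of the set and lower in 1, and in 13.2% and 12.0% of all genes.

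The second comparison asked how the same genes differed between sgIgfbp5 and sgScr in CUUC-G. Here 33 of the 38 were lower with sgIgfbp5, 3 were higher (Eno2, Ndrg1 and Kdm3a) and 2 did not pass (Pfkm and Car9). The median log2 change was -1.46, against 0.06 over all 14553 genes tested. Of all genes, 70.8% were called, 36.5% higher and 34.3% lower. At least 2-fold changes were called lower in 28 genes of the set and higher in 1, Ndrg1, and in 16.8% and 14.6% of all genes.

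The comparisons share no library. In the set, 29 of 38 genes (76.3%) were higher at relapse and lower after targeting; of the 13904 genes tested in both, 24.7% were. Eno2 and Kdm3a were higher in both comparisons, Slc16a1, Car12 and P4ha1 were lower in both, and Ndrg1 alone was lower at relapse and higher after targeting.

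**Figure D1:**
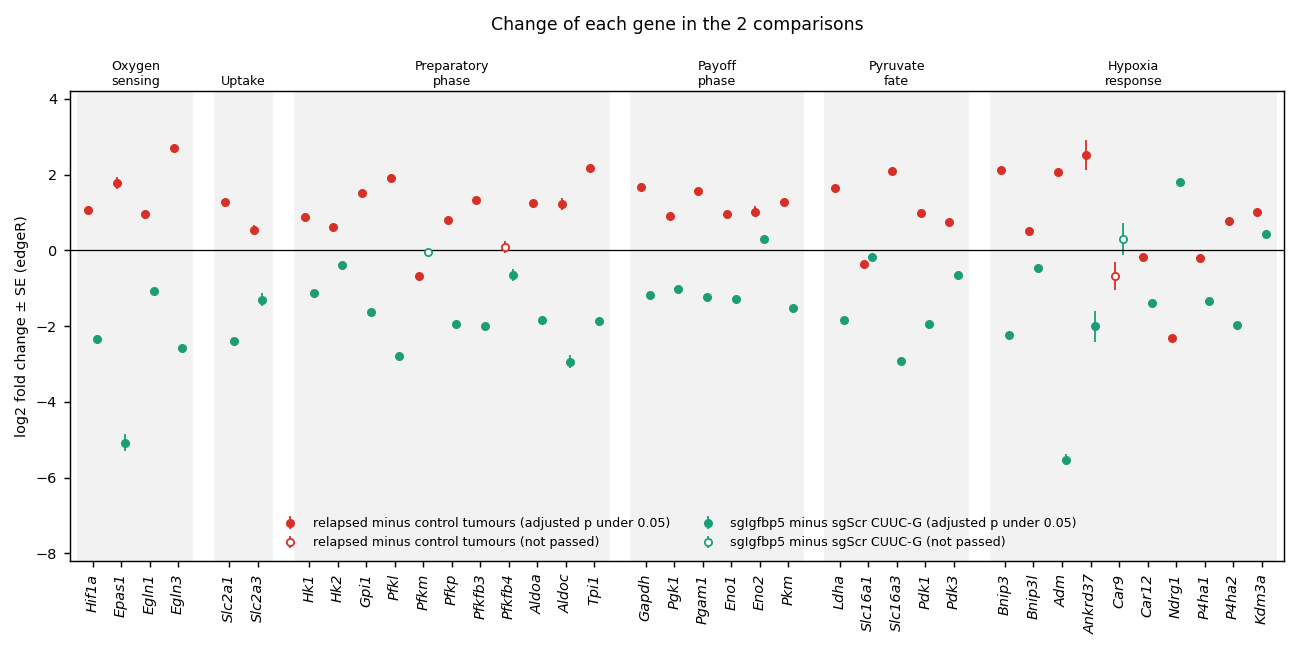
Log2 fold change with its standard error (edgeR) for each of the 38 genes, ordered by step, for relapsed minus control tumours and for sgIgfbp5 minus sgScr CUUC-G; filled points passed an adjusted p of 0.05. The relapse values lie above 0 for 32 genes and the targeting values below 0 for 34, with Ndrg1 turned the other way at -2.31 and 1.81.

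All 4 oxygen-sensing genes were higher at relapse and lower after targeting. Hif1a, the alpha subunit of HIF-1 (ENSMUSG00000021109.14; GRCm38 chromosome 12, 73901375 to 73947530, plus strand), stood at 309, 352 and 324 CPM in the control tumours and at 693, 687 and 686 CPM in the relapsed ones. The groups did not overlap, and the log2 change was 1.07 ± 0.037 (SE; adjusted p = 6.45e-19, edgeR). In CUUC-G it fell from 643, 604 and 566 CPM with sgScr to 138, 98.7 and 118 CPM with sgIgfbp5, a log2 change of -2.35 ± 0.115 (adjusted p = 2.79e-08, edgeR). With sgIgfbp5 all 3 libraries lay below the lowest control tumour. Epas1, which encodes the related subunit HIF-2 alpha, was far lower in level. Its control tumours had 3.69, 3.10 and 2.91 CPM and its relapsed ones 10.2, 10.4 and 12.6 CPM. With sgScr it had 12.4, 11.4 and 11.5 CPM, and with sgIgfbp5 it was nearly lost, at 0.252, 0.295 and 0.469 CPM (log2 change -5.08 ± 0.226). That was the second-largest fall of the set.

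The prolyl hydroxylases that mark HIF for destruction moved with it. Egln3, itself a known HIF target, had 14.0, 11.7 and 11.2 CPM in control and 80.5, 80.8 and 79.8 CPM at relapse, the highest log2 rise of the set at 2.70 ± 0.076 (adjusted p = 4.2e-22, edgeR). It fell from 82.0, 84.1 and 81.8 CPM to 14.1, 13.9 and 13.2 CPM after targeting. The relapsed and sgScr libraries thus lay between 79.8 and 84.1 CPM, and the other 6 between 11.2 and 14.1 CPM. Egln1, the main oxygen sensor of most cells, changed less, by 0.95 ± 0.054 and -1.08 ± 0.070. Compared per length, in TPM (transcript abundance per length, scaled to a fixed total), Egln3 supplied 21.6% ± 1.60 (SD, n = 3) of the summed Egln1 and Egln3 transcripts in control tumours and 48.7% ± 1.33 at relapse. It supplied 47.3% ± 0.548 with sgScr and 24.1% ± 0.797 with sgIgfbp5. For these shares, 3 libraries against 3 cannot give a two-sided exact permutation p below 0.1, which is the value obtained in both.

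Transcripts of both glucose transporters were higher at relapse. Slc2a1, the widespread transporter GLUT1 (ENSMUSG00000028645.12; chromosome 4, 119108711 to 119137983, plus strand), had 103, 101 and 94.9 CPM in control and 253, 231 and 235 CPM at relapse. After targeting it went from 247, 282 and 269 CPM to 48.8, 55.6 and 47.0 CPM. The log2 changes were 1.27 ± 0.043 and -2.40 ± 0.088. Slc2a3, the high-affinity transporter GLUT3, was a minor form at 7.88 to 15.5 CPM outside the sgIgfbp5 cells and 4.99 to 6.93 CPM within them. Its changes of 0.55 ± 0.127 and -1.30 ± 0.159 passed in edgeR but not on the authors' TPM (limma, adjusted p = 0.216 and 0.118).

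In the preparatory phase, 9 of 11 genes were higher at relapse, 1 was lower and 1 did not pass; after targeting 10 were lower and 1 did not pass. Hexokinase traps glucose in the cell, and both forms were higher at relapse and lower after targeting. Hk1 went from 90.1, 88.6 and 90.1 CPM to 158, 165 and 174 CPM at relapse, and from 175, 171 and 169.6 CPM to 73.6, 81.9 and 79.6 CPM after targeting. Hk2, the inducible form, had 79.4, 79.4 and 78.7 CPM in control, 126, 123 and 119 CPM at relapse, 145, 129.7 and 129 CPM with sgScr and 98.8, 103 and 107 CPM with sgIgfbp5. The fall of Hk2, -0.38 ± 0.075, left its level above that of the control tumours, while Hk1 fell by 1.13 ± 0.071 on the log2 scale to below them. Hk1 held 63.8% ± 1.98 of the summed hexokinase TPM in control and 65.0% ± 1.66 at relapse (n = 3; exact permutation p = 0.5), although in CPM its share was 53.1% ± 0.319 and 57.5% ± 1.91, without overlap (exact permutation p = 0.1). In TPM it held 63.2% ± 1.38 with sgScr and 50.7% ± 1.41 with sgIgfbp5. Transcripts listed as retained intron held 12.85% ± 8.495 of Hk1 TPM in control tumours and 0.0% at relapse (SD, n = 3). The Hk1 shares count these transcripts too. Gpi1, which makes fructose 6-phosphate, changed by 1.51 ± 0.035 and -1.62 ± 0.069.

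Phosphofructokinase commits sugar to glycolysis, and its 3 subunits did not move together. Pfkl, the liver form (ENSMUSG00000020277.11; chromosome 10, 77986947 to 78010083, minus strand), had 80.1, 73.9 and 87.5 CPM in control tumours and 311, 302 and 302 CPM at relapse, a log2 change of 1.92 ± 0.046. It dropped from 355, 404 and 399 CPM with sgScr to 52.8, 56.0 and 57.4 CPM with sgIgfbp5, a change of -2.80 ± 0.079. Pfkm, the muscle form, went the other way at relapse, from 62.3, 58.6 and 60.6 CPM to 37.3, 39.7 and 37.6 CPM (-0.66 ± 0.061; adjusted p = 1.44e-10, edgeR). In CUUC-G it was 45.2, 46.6 and 41.4 CPM with sgScr and 41.5, 48.2 and 38.7 CPM with sgIgfbp5; these groups overlapped and the change did not pass (adjusted p = 0.636, edgeR). Pfkp, the platelet form, followed Pfkl with smaller changes, 0.80 ± 0.054 and -1.94 ± 0.078. Per length, the makeup of the phosphofructokinase transcripts turned over. Pfkl held 40.2% ± 1.94 of phosphofructokinase TPM in control and 69.1% ± 1.18 at relapse, and Pfkm 36.5% ± 1.29 and 11.2% ± 0.710. With sgScr the shares were 70.7% ± 1.09 for Pfkl and 10.7% ± 0.579 for Pfkm, and with sgIgfbp5 44.4% ± 4.82 and 38.7% ± 4.60 (SD, n = 3 each; exact permutation p = 0.1, the smallest possible).

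Of the enzymes that make the activator of phosphofructokinase, Pfkfb3 had 61.4, 59.2 and 57.2 CPM in control and 148, 147 and 148 CPM at relapse. It then fell from 154, 147 and 136 CPM to 35.4, 38.6 and 36.0 CPM, changes of 1.32 ± 0.044 and -1.99 ± 0.080. Pfkfb4, its relative, was low, with 4.94 to 6.18 CPM in all 6 tumours, overlapping groups and no call (0.10 ± 0.162; adjusted p = 0.603, edgeR). It was lower after targeting, at 3.63 to 4.62 CPM against 6.34 to 7.12 CPM, but not on the authors' TPM (limma, adjusted p = 0.754). Aldoa, the main aldolase, held over 99% of aldolase TPM in the tumours (99.3% ± 0.249 and 99.3% ± 0.1001) and changed by 1.26 ± 0.029 and -1.84 ± 0.085. Aldoc, the minor form, fell further after targeting, from 14.1, 13.2 and 13.3 CPM to 1.31, 1.82 and 2.11 CPM. Tpi1, which interconverts the triose phosphates, made the largest log2 rise among the glycolytic enzymes of the set. Its 311, 269 and 285 CPM in control became 1336, 1304 and 1295 CPM at relapse, a log2 change of 2.18 ± 0.041. It had 1398, 1494 and 1523 CPM with sgScr and 388, 435 and 377 CPM with sgIgfbp5 (-1.88 ± 0.078).

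**Figure D2:**
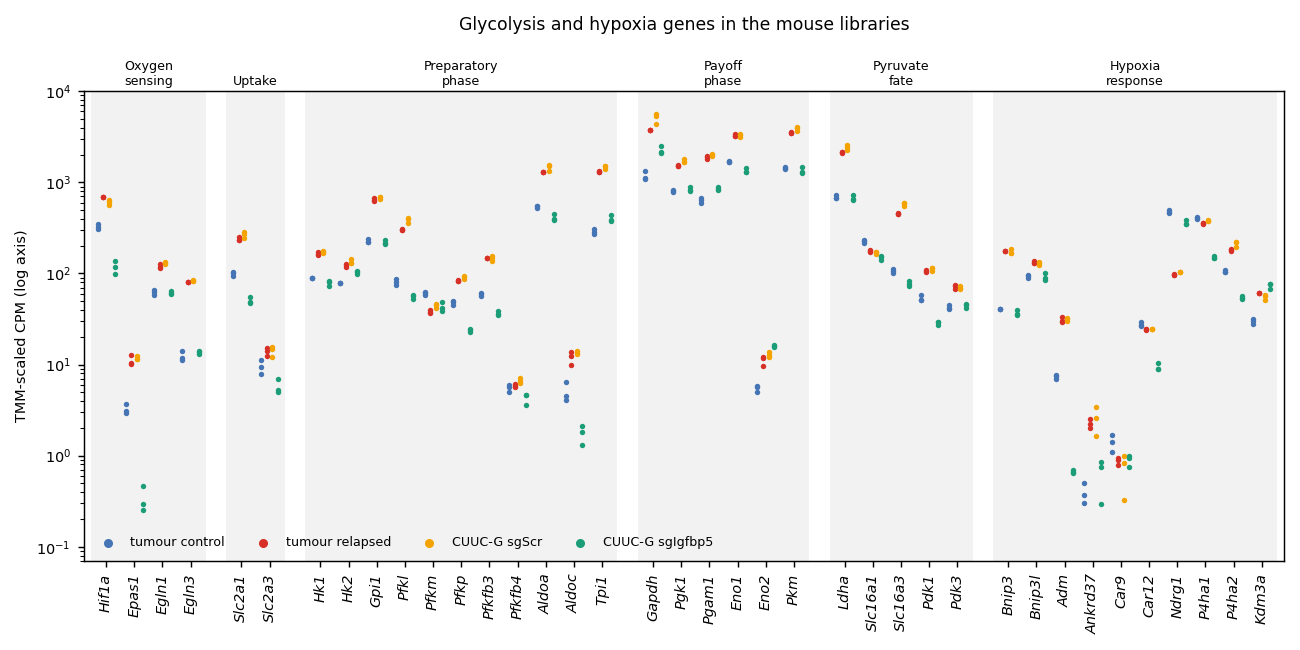
TMM-scaled CPM on a log axis of the 38 genes in each of the 12 mouse libraries, 1 point per library, ordered by step and coloured by group. Relapsed and sgScr points lie close together for nearly every gene, and Epas1 and Adm drop below 1 CPM with sgIgfbp5.

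All 6 payoff genes were higher at relapse, by 0.91 to 1.68 on the log2 scale, and 5 of them were lower after targeting, by 1.03 to 1.53. Gapdh, the first enzyme of this phase and a common reference gene, had 1322, 1085 and 1131 CPM in control and 3798, 3787 and 3761 CPM at relapse (1.68 ± 0.087; adjusted p = 4.84e-05, edgeR). It had 4418, 5355 and 5598 CPM with sgScr and 2151, 2492 and 2120.0 CPM with sgIgfbp5 (-1.18 ± 0.102). A gene often used for scaling thus differed about as much as the rest of its pathway. Ranked by mean TPM among all genes, Gapdh was number 12 in relapsed tumours and number 76 in control ones. Pgk1, which makes the first ATP of this phase, changed by 0.91 ± 0.029 and -1.03 ± 0.072. Pgam1, a mutase, changed by 1.57 ± 0.037 and -1.24 ± 0.068. Eno1, the main enolase, changed by 0.97 ± 0.025 and -1.29 ± 0.073. Genes named as copies of Pgam1 held 11.8% and 7.70% of the counts summed with it in the 2 tables, and adding them gave log2 ratios of 1.55 and -1.23.

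Eno2, the neuronal enolase and a known HIF target, was the exception. It was minor, at 5.83, 5.72 and 5.02 CPM in control and 11.9, 9.70 and 12 CPM at relapse (1.02 ± 0.141), and it was a little higher, not lower, after targeting. There it had 12.2, 12.7 and 13.9 CPM with sgScr and 15.8, 16.2 and 15.5 CPM with sgIgfbp5 (0.29 ± 0.104; adjusted p = 0.0261, edgeR). This call was lost in DESeq2 (adjusted p = 0.17) and when any of 5 of the 6 libraries was left out, all but sgScr replicate 3 (adjusted p 0.0634 to 0.12). The rise at relapse was lost on TPM (limma, adjusted p = 0.0673).

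Pkm, pyruvate kinase (ENSMUSG00000032294.18; chromosome 9, 59656368 to 59679375, plus strand), makes pyruvate and the last ATP. It had 1451, 1404 and 1471 CPM in control and 3499, 3441 and 3565 CPM at relapse, and went from 3659, 3993 and 4022 CPM to 1277, 1471 and 1306 CPM after targeting. The changes were 1.28 ± 0.026 and -1.53 ± 0.080. Its transcripts carry 1 of 2 exclusive exons of 167 bases each on GRCm38: the upstream exon at chr9:59675029-59675195 gives the constitutive enzyme PKM1, and the downstream exon at chr9:59675568-59675734 gives PKM2, the form usual in tumours. Only the tumour table holds transcripts. Of the 11 listed for Pkm, 1 was matched to each exon, and the others were left out of the shares. PKM1 was 18.2%, 19.3% and 19.7% of the summed TPM of the matched transcripts in the control tumours and 29.9%, 29.3% and 29.8% at relapse. Both forms were higher at relapse, PKM2 going from 834, 801 and 850.0 TPM to 1604, 1600.0 and 1629 TPM, and PKM1 from 186, 192 and 209 TPM to 686, 664 and 692 TPM. Among the matched transcripts, PKM2 stayed the main form in all 6 libraries, and its share was lower in each relapsed tumour than in any control. All Pkm transcripts together had a mean of 1250 TPM in control and 2721 TPM at relapse. Part of Pkm thus lies outside these shares.

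Of the 5 genes for the fate of pyruvate, 4 were higher and Slc16a1 was lower at relapse, and all 5 were lower after targeting. Ldha, which turns pyruvate into lactate (ENSMUSG00000063229.16; chromosome 7, 46841475 to 46855627, plus strand) and whose promoter held the 2 palindromes above, had 721, 673 and 681 CPM in control and 2167, 2126 and 2160.0 CPM at relapse. With sgScr it had 2242, 2467 and 2554 CPM and with sgIgfbp5 656, 718 and 639 CPM. These are changes of 1.64 ± 0.029 (adjusted p = 8.78e-27) and -1.85 ± 0.080 (adjusted p = 4e-09, edgeR). Slc16a3, the lactate exporter MCT4 (ENSMUSG00000025161.17; chromosome 11, 120948480 to 120960868, plus strand), made the largest moves of this step. It had 112, 101 and 108 CPM in control, 449.7, 452 and 461 CPM at relapse, 556, 591 and 593 CPM with sgScr and 72.7, 81.8 and 75.7 CPM with sgIgfbp5. The log2 changes were 2.09 ± 0.039 and -2.92 ± 0.075.

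Slc16a1 encodes MCT1, a transporter that moves lactate in either direction. It was lower at relapse, 173, 174 and 179 CPM against 231.5, 225 and 217 CPM (-0.36 ± 0.037; adjusted p = 1.86e-09, edgeR). After targeting it had 152, 155 and 142 CPM against 172, 162.5 and 174 CPM (-0.18 ± 0.068; adjusted p = 0.0337, edgeR), a call lost with scaling by library size only (-0.07; adjusted p = 0.36), on TPM (limma, adjusted p = 0.235) and without any 1 library but sgIgfbp5 replicate 2 (adjusted p 0.0532 to 0.131). Slc16a3 therefore held 53.7% ± 0.372 of the summed TPM of both transporters in control and 85.1% ± 0.0698 at relapse. With sgScr its share was 88.4% ± 0.565 and with sgIgfbp5 52.6% ± 1.41 (SD, n = 3 each; exact permutation p = 0.1, the smallest possible). This was the widest turnover of any step in TPM, by 31.4 and 35.8 percentage points.

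Pdk1 and Pdk3, kinases that shut the pyruvate dehydrogenase complex and so keep pyruvate out of the mitochondrion's citrate cycle, were both higher at relapse and lower after targeting. Pdk1 had 51.6, 51.7 and 58.3 CPM in control, 109, 104.5 and 106 CPM at relapse, 105.5, 114 and 113 CPM with sgScr and 27.4, 29.4 and 29.4 CPM with sgIgfbp5. After targeting its log2 change was -1.95 ± 0.078 and that of Pdk3 -0.66 ± 0.076. The Pdk1 share of the pair's TPM was 50.9% ± 1.38 with sgScr and 30.0% ± 2.52 with sgIgfbp5 (n = 3; exact permutation p = 0.1). In the tumours it was 44.4% ± 3.82 and 49.0% ± 2.21, and these groups overlapped (exact permutation p = 0.2). These shares count all transcripts of each gene. Transcripts listed as protein-coding held only 38.3% ± 7.49 of Pdk1 TPM in control tumours and 37.3% ± 4.68 at relapse (SD, n = 3). For Pdk3 they held all of it. The Pdk1 shares are thus not shares of coding transcripts. The CUUC-G table, which is by gene, cannot be split in this way.

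**Figure D3:**
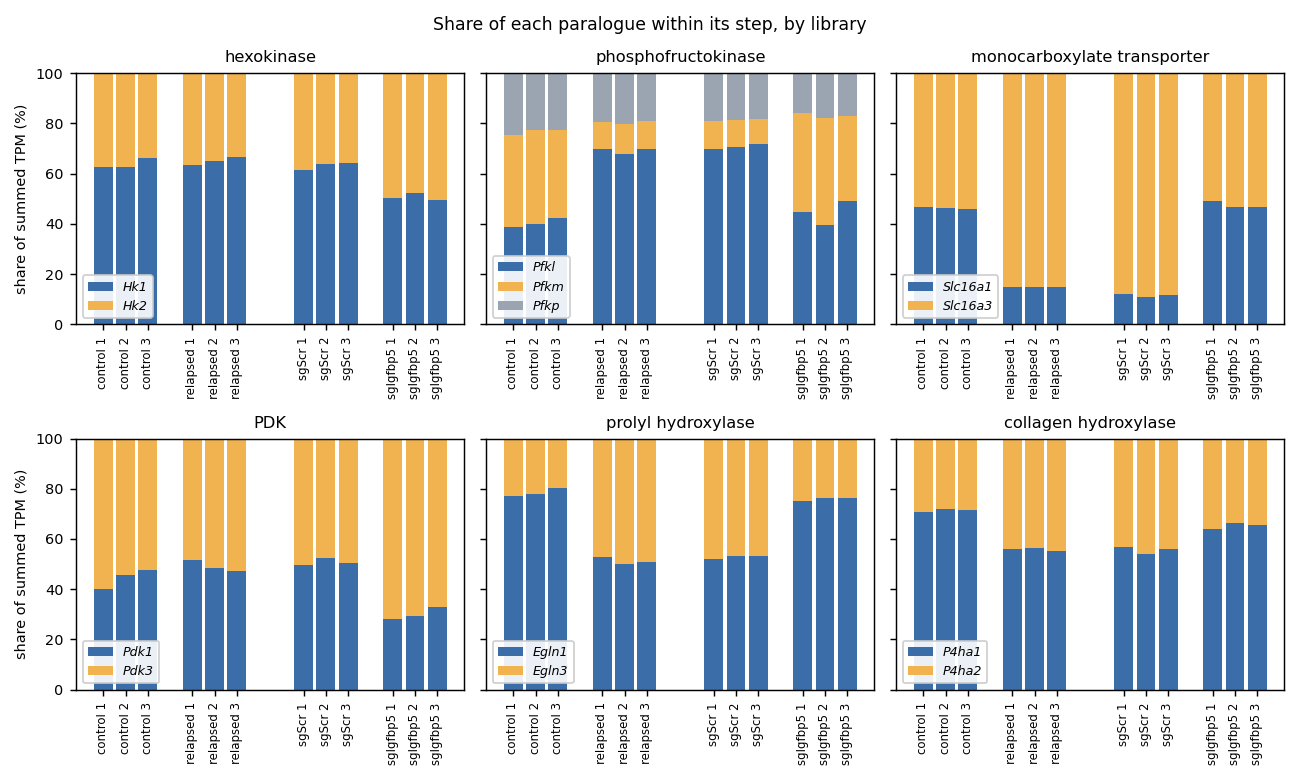
Share of each paralogue in the summed TPM of its step, in percent, 1 bar per library, for 6 steps in the control and relapsed tumours and in CUUC-G with sgScr and sgIgfbp5. Phosphofructokinase, the monocarboxylate transporters and the prolyl hydroxylases change their makeup between groups; Hk1 holds 62.6% to 66.7% of hexokinase TPM in the tumours.

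The hypoxia response was the most divided step: at relapse 6 of 10 genes were higher, 3 lower and 1 not called, and after targeting 7 were lower, 2 higher and 1 not called. Bnip3, a receptor that sends mitochondria to autophagy, had 40.2, 40.9 and 40.9 CPM in control, 174.7, 176 and 177 CPM at relapse, 166, 168 and 186 CPM with sgScr and 40.0, 36.3 and 34.7 CPM with sgIgfbp5 (2.11 ± 0.044 and -2.23 ± 0.085). Its relative Bnip3l changed little, by 0.50 ± 0.043 and -0.48 ± 0.082, the second not passing on TPM (limma, adjusted p = 0.0762). Adm encodes adrenomedullin, a peptide that widens blood vessels. It had 7.52, 7.62 and 6.93 CPM in control and 33.5, 29.1 and 29.8 CPM at relapse, and it fell from 29.8, 31.4 and 32.3 CPM to 0.656, 0.639 and 0.704 CPM after targeting. That log2 change of -5.53 ± 0.143 was the largest fall of the set. Ankrd37 was low but rose from 0.501, 0.368 and 0.301 CPM to 2.24, 1.99 and 2.55 CPM and fell from 2.60, 1.65 and 3.44 CPM to 0.756, 0.295 and 0.845 CPM (2.51 ± 0.395 and -2.0 ± 0.411).

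Some common hypoxia markers did not follow. Car9, the carbonic anhydrase most used as a marker of hypoxic tumours, was low, at 1.69, 1.10 and 1.41 CPM in control, 0.947, 0.895 and 0.784 CPM at relapse, 0.833, 1.00 and 0.322 CPM with sgScr and 0.756, 0.933 and 0.985 CPM with sgIgfbp5. Neither change passed (adjusted p = 0.109 and 0.542, edgeR). Car12, its relative, was 26.2, 29.3 and 27.02 CPM in control and 24.7, 24.3 and 23.9 CPM at relapse; the change of -0.18 ± 0.078 had an adjusted p of 0.0396 (edgeR), which was 0.125 in DESeq2 and 0.0514 to 0.147 without any 1 library other than control replicate 1. After targeting Car12 fell from 24.7, 24.5 and 24.8 CPM to 10.3, 8.94 and 8.92 CPM (-1.39 ± 0.103).

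Ndrg1, a stress protein induced by hypoxia in many cells (ENSMUSG00000005125.14; chromosome 15, 66929318 to 66969640, minus strand), moved against the set in both comparisons. It had 496, 462.5 and 475 CPM in control tumours and 99.6, 95.1 and 95.2 CPM at relapse, a log2 change of -2.31 ± 0.038 (adjusted p = 1.73e-27, edgeR). In CUUC-G it had 105, 103 and 104 CPM with sgScr and 353, 389 and 348.5 CPM with sgIgfbp5, a change of 1.81 ± 0.070 (adjusted p = 1.93e-09, edgeR). No library of a low group came near one of a high group.

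The collagen prolyl hydroxylases, which need oxygen to mature collagen, parted at relapse. P4ha1 had 397, 404 and 414 CPM in control and 347, 357 and 354 CPM at relapse (-0.20 ± 0.032), and P4ha2 109, 105 and 104 CPM and 184, 177 and 183 CPM (0.78 ± 0.040). Both were lower after targeting, by 1.33 ± 0.064 and 1.96 ± 0.076 on the log2 scale. The 8 fibroblast markers, mostly collagen by level, summed to 20390 to 20970 CPM in control, 11130 to 11420 CPM at relapse, 11760 to 12310 CPM with sgScr and 5557 to 6215 CPM with sgIgfbp5, and their part in the P4ha1 result was not tested. Members of that list did not all go one way: mean Vim was 1624 CPM in control and 2626 CPM at relapse, mean Pdgfra 11.2 and 107.9 CPM, and mean Col3a1 was 629.6 CPM with sgScr and 1336 CPM with sgIgfbp5. Kdm3a, a histone demethylase induced by HIF, was 2.02-fold higher at relapse, going from 28.1, 31.9 and 30.4 CPM to 60.8, 60.9 and 60.7 CPM, a log2 change of 1.01 ± 0.065. It was higher again after targeting, at 77.6, 67.1 and 77.3 CPM against 58.4, 56.2 and 51.3 CPM (0.42 ± 0.087; adjusted p = 0.00117, edgeR).

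Summed by TPM, the 24 genes from glucose uptake to lactate export took up 0.863%, 0.830% and 0.833% of all transcripts in the control tumours and 2.02%, 2.01% and 2.04% in the relapsed ones. In CUUC-G they took up 2.02%, 2.10% and 2.10% with sgScr and 0.775%, 0.855% and 0.809% with sgIgfbp5. The 14 genes of oxygen sensing and hypoxia response held far less, 0.0912% ± 0.0014 in control and 0.106% ± 0.00099 at relapse, then 0.104% ± 0.0039 with sgScr and 0.0541% ± 0.0018 with sgIgfbp5 (SD, n = 3). The 6 cycling markers summed to 763 to 812 CPM in control, 1341 to 1351 CPM at relapse, 1199 to 1301 CPM with sgScr and 262 to 328 CPM with sgIgfbp5, and their part in the result was not tested. In libraries of bulk RNA, fewer cells that express a gene and less RNA of it per cell cannot be told apart.

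**Figure D4:**
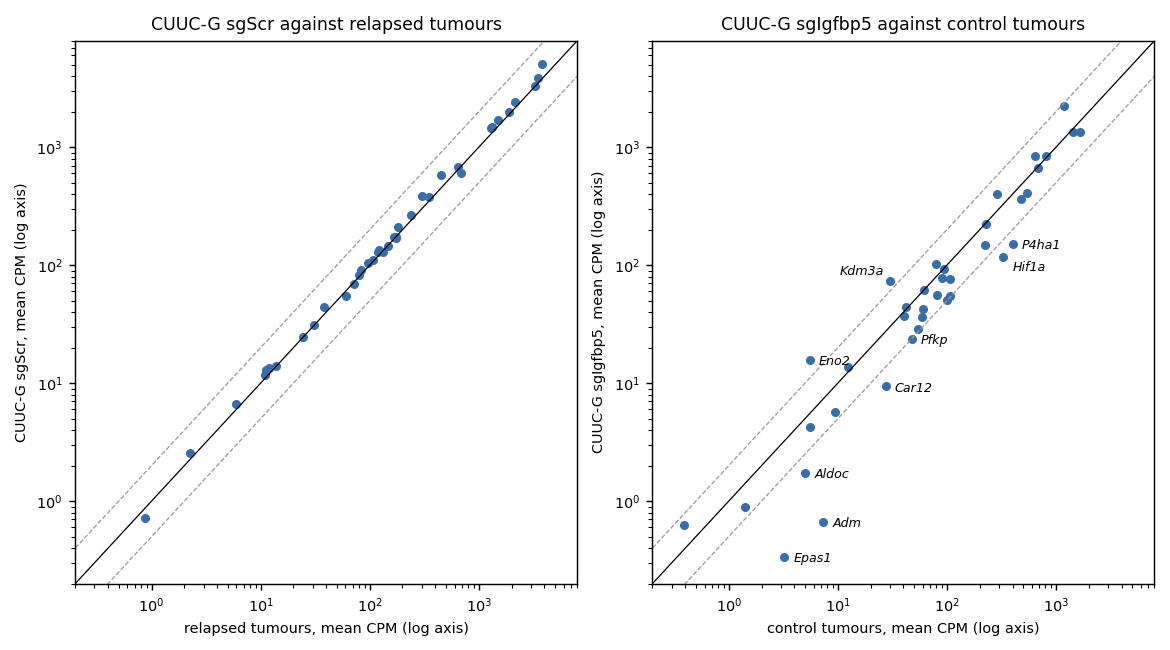
Mean CPM of each of the 38 genes on log axes, in sgScr cells against relapsed tumours and in sgIgfbp5 cells against control tumours; the solid line marks equal levels and the dashed lines 2-fold differences. No gene lies outside the dashed lines in the first panel, and 9 named genes do in the second.

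Across the tables, 0 of the 38 genes differed 2-fold between relapsed tumours and sgScr cells, the widest gap being 0.44 on the log2 scale. Over all 14064 genes the share was 0.611%, so this count is near the background. The sgIgfbp5 cells were close to the control tumours for most of the set, with a median log2 difference of -0.36, and 9 genes differed 2-fold. Of all 14064 genes, 21.4% differed 2-fold between these 2 groups, so the count for the set is near the background. Epas1, Adm, Aldoc, Car12, Hif1a, P4ha1 and Pfkp were lower in sgIgfbp5 cells than in control tumours, and Eno2 and Kdm3a were higher. These differences were not tested, since the tables were deposited and scaled separately.

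The other genes of the pathway were followed in 6 lists of 81 genes. Their counts are to be read against the 36.6% higher and 36.9% lower of all genes at relapse and the 36.5% and 34.3% after targeting, and several lists lie near those shares. Of 11 genes for the entry of pyruvate into the mitochondrion, which include the dehydrogenase subunits and the kinases and phosphatases that close and reopen the complex, 9 were lower and 1 higher at relapse (median log2 change -0.56), and 6 were higher and 1 lower after targeting (median 0.57). Dld, a subunit shared by dehydrogenase complexes, went from 221.6 to 117 CPM on average at relapse and from 110.4 to 181 CPM after targeting (log2 changes -0.92 ± 0.039 and 0.71 ± 0.122). Pdk2, a kinase of the same family as Pdk1, moved opposite to it, by -2.28 ± 0.211 at relapse, from 7.46 to 1.53 CPM, and by 2.82 ± 0.207 after targeting, from 1.42 to 10.1 CPM. Pdp2, a phosphatase that reopens the complex, was the 1 gene higher at relapse (1.07 ± 0.084) and lower after targeting (-1.0 ± 0.112).

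Of further HIF targets, 17 of 26 were higher and 8 lower at relapse, with a median log2 change of 0.62, and 6 were higher and 16 lower after targeting, with a median of -0.78. Angptl4, a lipoprotein lipase inhibitor, rose from 8.70, 6.36 and 5.93 CPM to 97.7, 94.6 and 103 CPM at relapse (3.80 ± 0.092). Tfrc, the transferrin receptor, rose from 50.3, 53.4 and 55.3 CPM to 502, 501 and 492 CPM (3.23 ± 0.040). Ero1l, an oxidase of the endoplasmic reticulum listed in the table as Ero1a, fell from 1339, 1422 and 1346 CPM to 323.5, 316.5 and 320.4 CPM (-2.10 ± 0.031). After targeting, Plod2, a collagen lysyl hydroxylase, fell from 534, 535 and 532 CPM to 83.9, 64.2 and 73.3 CPM (-2.85 ± 0.096).

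In the remaining oxygen-sensing genes, 2 of 6 tested were higher and 3 lower at relapse, and 3 were higher and 1 lower after targeting. Vhl, the ligase subunit that recognises hydroxylated HIF, changed by -0.33 ± 0.067 and 1.19 ± 0.077, from 38.3 ± 1.99 CPM with sgScr to 87.0 ± 3.06 CPM with sgIgfbp5 (SD, n = 3). Arnt, the partner subunit of HIF, was lower at relapse, 75.6 ± 2.79 against 109.6 ± 1.13 CPM. Of the pentose phosphate genes, which branch off glucose 6-phosphate, 4 of 7 were higher and 2 lower at relapse, and 1 was higher and 5 lower after targeting. Its NADPH-making dehydrogenases moved with glycolysis: Pgd changed by 1.13 ± 0.042 and -1.62 ± 0.074, and G6pdx by 0.49 ± 0.042 and -1.51 ± 0.082. Of the other isozymes and transporters, 7 of 14 tested were higher and 5 lower at relapse, and 4 of 12 higher and 5 lower after targeting. Ldhb, the lactate dehydrogenase form that favours pyruvate, was lower at relapse, at 13.7, 13.1 and 12.98 CPM against 29.2, 24.5 and 27.3 CPM (-1.02 ± 0.091). Of the 3 gluconeogenic genes tested, 2 were lower at relapse, and 1 was higher and 2 lower after targeting; Pck2, which makes phosphoenolpyruvate in mitochondria, changed by -1.33 ± 0.040 and 0.61 ± 0.078.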

How the data were processed

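Poly(A) RNA was sequenced from stranded libraries, per the labels' protocols. The submitters' processing notes name Salmon, without a version, and GRCm38 (mm10) and GRCh38 (hg38). The authors deposited estimated counts and TPM, for 147828 transcripts of the tumours and for 55858 genes of CUUC-G. The deposited CUUC-G counts are whole numbers, but 153 values were 0 where the authors' TPM was above 0, so they are rounded estimates. Columns of CUUC-G marked mI were read as sgIgfbp5 because the human libraries use hI in the same way. The number of columns matched to no sample was 0. The human MGHU3 tables were not analysed here.

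Transcripts were summed by gene identifier and rounded. Each comparison was fitted on all genes of its own table with edgeR 4.0.16 in R 4.3.3 (TMM, filterByExpr, robust quasi-likelihood, two-sided, Benjamini-Hochberg over all genes tested, threshold 0.05), with 14373 and 14553 genes tested. CPM used TMM-scaled totals, with the factors found within each comparison. Standard errors are the absolute log2 fold change over the square root of F. Levels of different genes were compared in TPM. Aldoa has more than 1 identifier in the table; the one with the most counts was used. Positions came from GENCODE M21 on GRCm38; the authors' annotation was another release. Promoters came from RefSeq (GRCm38.p6), searched for ACGTG and GCGTG on both strands. The edgeR step was run on simulated data in which few genes were changed. That setting does not cover change as wide as in these comparisons.

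The genes, lists and tests were chosen with earlier results of these data known. All 38 genes are named; of the wider lists, the 4 largest changes per list and comparison were eligible, if called, not overlapping between groups and at a mean log2 CPM of 2 or more. Some genes that this rule allowed are not reported here. Alternatives were RLE factors, library size only, DESeq2 1.42.0, other filters, dispersion that was not robust, limma 3.58.1 on log2(TPM + 1) or log2(TPM + 0.1), leaving out each library, a block for the replicate number, a fold of at least 2, and CPM in place of TPM for shares.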

Additional observations from a re-analysis of the deposited data

How the results depend on the processing

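Of 76 log2 changes of the 38 genes in the 2 comparisons, 64 kept their direction and their side of the threshold in every alternative fit. This leaves aside the fold of at least 2, which is given below and removed more calls. Across the fits 9 changed side in at least 1, and 3 others, none of which passed in any fit, crossed 0. The 9 were Slc2a3 and Eno2 in both comparisons, Car12 at relapse, and Hk2, Pfkfb4, Slc16a1 and Bnip3l after targeting. Those that crossed 0 were Pfkfb4 at relapse, which went from 0.10 to -0.08 with limma on log2(TPM + 1), with and without the filter, and to -0.09 on log2(TPM + 0.1); Pfkm after targeting, from -0.05 to 0.06 with library size scaling and to 0.01 with all 3 limma fits; and Car9 after targeting, from 0.30 to -0.04 without sgScr replicate 3 (0.61 at the most, without sgScr replicate 2). When a change of at least 2-fold was asked for as well, the calls at relapse went from 10559 to 3623 genes. Of the set, 20 were then higher and 1 lower. After targeting the calls went from 10305 to 4559 genes, with 1 of the set higher and 28 lower. By this rule 18 genes of the set were higher at relapse and lower after targeting, and Ndrg1 was the reverse. Of all genes, 13.2% were called at least 2-fold higher at relapse and 16.8% at least 2-fold lower after targeting. The share of all genes that met both was not counted, so the 18 stands without its own background. Leaving out 1 library at a time gave 31 genes higher and 4 to 5 lower at relapse, and 32 to 33 lower and 2 to 3 higher after targeting. Library size scaling moved the median of all genes by 0.111 (log2) after targeting and limma on log2(TPM + 1) moved it by -0.122 at relapse. Limma on log2(TPM + 1) called 29 of the set higher and 5 lower at relapse, against 3518 higher and 5129 lower of 13333 genes. After targeting it called 3 of the 37 tested higher and 29 lower, against 4799 higher and 3856 lower of 13347 genes. Without the filter the lower counts in the set were 4 and 28. With the replicate number as a block, 31 genes of the set were higher and 5 lower at relapse, among 10472 called, and 2 were higher and 32 lower after targeting; Eno2 (adjusted p = 0.0527) and Slc16a1 (adjusted p = 0.0802) lost their calls. Deviations of libraries with the same number correlated at 0.013, 0.015 and 0.006 in the tumours. Each tumour library correlated best with its own number. In CUUC-G the values were 0.036, 0.093 and -0.082. There, sgIgfbp5 libraries 1 and 2 correlated best with their own number, and library 3 with sgScr library 1 (0.129). The numbers were not taken to pair the samples. In CPM in place of TPM the change in the Slc16a3 share was 39.9 and -43.5 percentage points, and that in the Hk1 share at relapse was 4.42 in place of 1.23. Depth limits Car9 and Ankrd37, at under 4 CPM in every library.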
